A study of Mus musculus with 6 samples.

Results

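The V-ATPase, Ragulator and Rag GTPase genes were taken as every protein-coding row of the deposited gene table whose gene name begins with Atp6v, Atp6ap, Lamtor or Rrag, which gave 36 of its 55414 genes. By role, 9 encode subunits of the V0 proton channel, 13 subunits of the V1 head, 3 V-ATPase accessory proteins, 5 Ragulator subunits and 4 Rag GTPases. The name rule also took Atp6v1fnb and Lamtor3-ps, which belong to none of these complexes. The libraries were bulk RNA-seq of liver natural killer (NK) cells from wild-type mice (genotype WT), made with SMART-seq mRNA, a kit that amplifies cDNA by PCR before sequencing. There were 3 libraries from mice given PBS and 3 from mice given metformin at 200 mg/kg for 3 days, all labelled day 3. Nothing in the labels says whether each library came from its own mouse, so a p-value here reflects only how far these libraries scatter, and no mouse ages are given in the labels used here.

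The V-ATPase is a rotary proton pump of the lysosome: the V1 head hydrolyses ATP in the cytosol and drives proton transport through the V0 sector in the membrane. Ragulator is a scaffold on the lysosomal surface that anchors the Rag GTPases, heterodimers of RagA or RagB with RagC or RagD, which recruit the growth kinase complex mTORC1 when amino acids are plentiful. The V-ATPase and Ragulator also serve as the docking site for a lysosomal route of AMPK activation, and a low-dose metformin route has been described in which PEN2 (gene Psenen) binds the accessory subunit ATP6AP1.

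Summed gene counts ranged from 22152167 to 30161214 per library. The 10 NK cell markers summed to 15892 to 16979 CPM, reads scaled to a fixed library size, in the PBS libraries. In the metformin libraries they summed to 16042 to 19046 CPM, so the labelled cell type was present. At unadjusted p under 0.05 in edgeR, 0 of the 10 were higher and 1 lower, beside 5.29% and 5.08% of all genes. The marker counts below stand beside the same shares. Summed markers of some other cells were higher in the metformin libraries. Summed ILC1 markers (type 1 innate lymphoid cells) were 758 to 874 CPM under PBS and 1195 to 1284 CPM under metformin, with all 6 of 6 higher at unadjusted p under 0.05. Summed T cell markers were 497 to 603 and 807 to 983 CPM, with 5 of 10 higher. Summed macrophage and monocyte markers were 237 to 402 CPM under PBS and 252 to 688 CPM under metformin, with 6 of 11 tested higher and 1 lower. Metformin replicate 3 held the highest macrophage and monocyte sum, and its hepatocyte markers reached 420.0 CPM, against 105 to 208 CPM under PBS and 116 CPM in the lowest metformin library. B cell markers (29.6 to 156 against 69.8 to 224 CPM), neutrophil markers (119.8 to 165 against 142 to 256 CPM, 1 of 6 higher) and endothelial markers (100.2 to 113 against 80.5 to 103 CPM) overlapped between groups. No marker was at 0 in all libraries, and none passed adjustment in edgeR's quasi-likelihood test. The part of these cells in the values below was not tested, and in bulk RNA fewer cells of a type and less RNA per cell cannot be told apart.

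No member of the 3 complexes passed the test between metformin and PBS: edgeR's quasi-likelihood test with Benjamini-Hochberg adjustment over 15527 genes called 0 of the 29 members with enough reads, and 0% of all genes. At unadjusted p under 0.05, 3 members were higher under metformin (Lamtor4, Lamtor2 and Atp6v1g2), 10.3% of those tested against 5.29% of all genes, and 1 was lower (Atp6v1a), 3.45% against 5.08%. Without metformin replicate 2 these counts were 9 and 2, beside 1893 of 16169 genes in either direction. The fit of all libraries had 1610 of 15527. Without PBS replicate 1 or 2 the lower count was 0, beside 1192 of 16049 and 1048 of 16165 genes in either direction. The median log2 fold change of the 29 members was 0.12, against 0.0053 for all genes tested, with 19 members above 0 and 10 below. Without metformin replicate 3 the members' median was 0.01, and with the gene-length trend removed (described further on) it was 0.03. DESeq2 called 1 member, Lamtor4, against 1.93% of all genes, and limma-voom called 0 of 15527 genes.

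The promoters of several members carry CACGTG, the core of the E-box that the lysosomal transcription factors TFEB and TFE3 bind. This sequence is its own reverse complement, so each match stands on both strands and was counted once. In windows from 250 bases before to 50 bases after the RefSeq gene start, 28 of the 36 members had a sequence and 8 of those 28 (28.6%) held the motif: Atp6v0b, Atp6v0d1, Atp6v0e, Atp6v1a, Lamtor1, Lamtor4, Rragb and Rragc. The share was 8.09% of 27025 genes with a window, and 12.2% of the 7591 protein-coding genes of at least 5 TPM, the deposited length-scaled level. All 8 members were among the 17 of at least 5 TPM with a window (47.1%), and 0 of 11 members under 5 TPM held it. Shown are the 150 bases before the start, 5′ to 3′ along the gene's strand, from RefSeq on GRCm38.p6, with CACGTG in capitals, chosen after their values were seen to set Lamtor4 and Atp6v1a, the members with the smallest p in either direction among those of at least 5 TPM, beside 1 other Ragulator, V0 and Rag gene. Their positions are chr5:138255332-138255481 on the plus strand for Lamtor4, chr7:101905687-101905836 on the plus strand for Lamtor1, chr4:117887330-117887479 on the minus strand for Atp6v0b, chr16:44139260-44139409 on the minus strand for Atp6v1a and chr4:123917283-123917432 on the plus strand for Rragc.
Lamtor4: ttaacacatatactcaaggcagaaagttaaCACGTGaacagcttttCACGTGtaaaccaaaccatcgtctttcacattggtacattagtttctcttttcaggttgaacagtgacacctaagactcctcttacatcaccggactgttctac
Lamtor1: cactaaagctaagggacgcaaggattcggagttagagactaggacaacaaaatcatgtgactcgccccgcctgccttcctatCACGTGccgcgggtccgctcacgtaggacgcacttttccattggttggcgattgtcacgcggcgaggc
Atp6v0b: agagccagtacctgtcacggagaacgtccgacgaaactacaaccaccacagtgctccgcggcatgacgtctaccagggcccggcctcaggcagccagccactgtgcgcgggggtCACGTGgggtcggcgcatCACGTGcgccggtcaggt
Atp6v1a: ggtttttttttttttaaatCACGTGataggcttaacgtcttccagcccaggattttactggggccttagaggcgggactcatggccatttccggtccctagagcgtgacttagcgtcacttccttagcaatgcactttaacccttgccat
Rragc: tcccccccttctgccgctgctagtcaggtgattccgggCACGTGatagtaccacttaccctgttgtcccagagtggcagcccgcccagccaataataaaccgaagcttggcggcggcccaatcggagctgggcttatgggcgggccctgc

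Counted from the gene start, the Lamtor4 window held the motif at -120 and -104 and the Atp6v0b window at -36 and -18. It began at -68 in Lamtor1, -131 in Atp6v1a and -112 in Rragc. Among these 5, the log2 fold changes ran from -0.31 (Atp6v1a) to 0.57 (Lamtor4), a range set by the choice of these genes. The members with the motif that are not shown had 0.12 (Atp6v0d1), 0.24 (Atp6v0e) and 0.08 (Rragb). Of all members with the motif, Atp6v1a and Rragc (-0.02) lay below 0 and the others above. A match describes these letters only.

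Most of the pump was well expressed. Of the 29 tested members 23 had a mean of at least 5 TPM, a unit that divides by transcript length and so allows levels to be compared between genes. The V1 subunit F gene Atp6v1f was highest at a mean of 507 TPM over the 6 libraries, followed by the V0 subunit gene Atp6v0e at 484 TPM, and this order held in 6 of 6 libraries. Atp6v0b and Atp6v0c, which encode proton-carrying ring subunits, had 273 and 258 TPM. Lamtor2 and Lamtor5 had 253 and 238 TPM, Atp6ap1 208 TPM and Atp6v1g1 184 TPM. Atp6v1b2, Atp6v1c1, Atp6v1h, Rragc, Atp6v1d, Atp6v0d1 and Lamtor4 lay between 84.3 and 72.9 TPM, where each exceeded the next in only 2 to 4 of 6 libraries. At the lower end came Rraga at 44.5 TPM, the catalytic subunit gene Atp6v1a at 40.9 TPM and Rragb at 9.39 TPM.

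**Figure D1:**
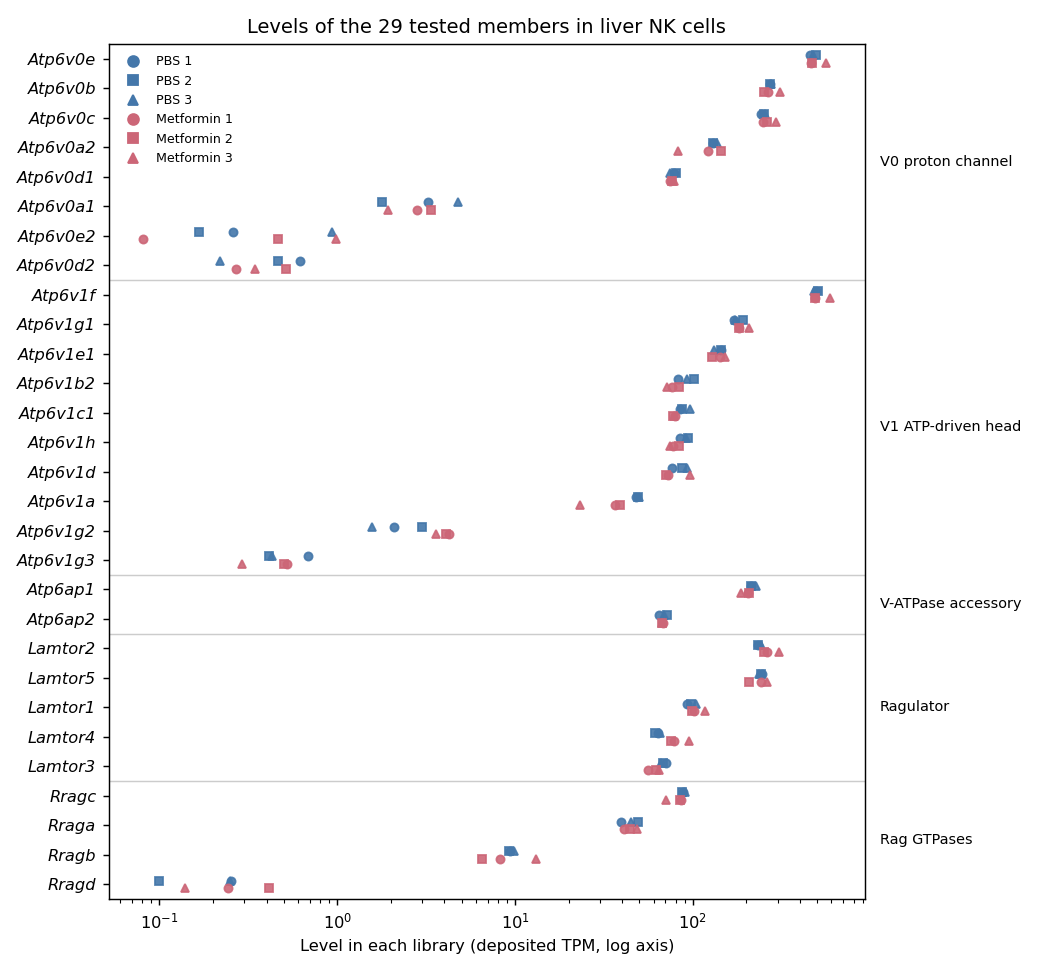
Deposited TPM (log axis) of the 29 tested members in each of the 6 libraries, 1 point per library, grouped by role. Atp6v1f (mean 507 TPM) and Atp6v0e (484 TPM) are highest, and the 6 members under 5 TPM are Atp6v0a1, Atp6v0e2, Atp6v0d2, Atp6v1g2, Atp6v1g3 and Rragd.

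Where a subunit has several isoforms, 1 gene usually carried nearly all of the TPM. Atp6v0d1 held 99.5% ± 0.243 (SD, n = 3) of the d subunit under PBS, Atp6v0e 99.9% ± 0.0887 of the e subunit, and Atp6v1b2 and Atp6v1e1 100% of theirs in every library. The restricted isoforms Atp6v1b1 and Atp6v1e2, the accessory-like gene Atp6ap1l and Lamtor3-ps were listed at 0 in all 6 libraries, and Atp6v0a4, Atp6v1c2 and Atp6v1fnb had too few reads to be tested. The a subunit was shared: Tcirg1, which encodes the a3 isoform and falls outside the name rule, held 54.6% ± 1.92 under PBS and 55.7% ± 7.07 under metformin, and Atp6v0a2 held 44.3% ± 1.76 and 43.2% ± 6.96. Metformin replicate 3 stood apart here, with 63.8% from Tcirg1 and 35.2% from Atp6v0a2, while the other 5 libraries gave Atp6v0a2 43.2% to 47.9%.

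Among the V0 genes, which build the proton channel, 0 of 8 tested passed adjustment and 0 were at unadjusted p under 0.05, with a median log2 fold change of 0.17. The median was -0.02 without metformin replicate 3, 0.03 without PBS replicate 2 and -0.01 on deposited TPM, where all genes tested had -0.08. Atp6v0c, the ring subunit gene, had 159, 159 and 156 CPM under PBS and 174, 172 and 218 CPM under metformin. The groups did not overlap, and metformin replicate 3 was the high library. Its log2 fold change was 0.25 (SE of 0.11 and an adjusted p of 0.487 in edgeR), and 0.13 without metformin replicate 3. Reads of its pseudogene Atp6v0c-ps2 may be shared with it, since 88% of the pseudogene's 50-base windows also occur in Atp6v0c. That pseudogene had 4.15 to 9.33 CPM.

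Atp6v0e, the other V0 gene whose groups did not overlap, had 182, 187 and 179 CPM under PBS and 201, 192 and 256 CPM under metformin. Its log2 fold change was 0.24 (SE of 0.12 and an adjusted p of 0.525 in edgeR) and 0.10 without metformin replicate 3. Atp6v0a2 had 383, 403 and 374 CPM under PBS and 345, 386 and 258 CPM under metformin, and the groups overlapped. Its log2 fold change was -0.23 (SE 0.15), and -0.09 without metformin replicate 3.

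The V1 estimates split by sign, 5 above 0 and 5 below among 10 tested, with a median log2 fold change of -0.02, which was 0.08 without PBS replicate 1. Atp6v1a encodes the catalytic A subunit that hydrolyses ATP and lies at 43905765 to 43960068 on the minus strand of chromosome 16 (ENSMUSG00000052459.14), by the position in the deposited table. It had 97.7, 100 and 90.9 CPM under PBS and 78.4, 85.4 and 69.6 CPM under metformin. All 3 metformin libraries were below all 3 PBS libraries. The means were 96.2 ± 4.71 and 77.8 ± 7.90 CPM (SD, n = 3), a log2 fold change of -0.31 (SE 0.11, 95% interval -0.55 to -0.06, with an adjusted p of 0.427 in edgeR). It no longer reached unadjusted p under 0.05 without PBS replicate 1 (log2 fold change -0.31) or without PBS replicate 2 (-0.28).

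On deposited TPM the Atp6v1a difference was larger, with 47.9, 49.4 and 49.5 TPM under PBS against 36.4, 38.8 and 23.2 TPM under metformin, a log2 difference of -0.60. Dividing counts by TPM gives the transcript length that the authors' quantification assigned, up to a factor per library. For Atp6v1a this was 3569, 3708 and 3450 bases under PBS and 3625, 3856 and 4709 bases under metformin. Metformin replicate 3 was thus assigned longer transcripts of this gene than the other 5 libraries. The metformin to PBS ratio of that length was 1.14, outside the range of 0.899 to 1.06 of the other 22 members of at least 5 TPM.

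Atp6v1f, the shortest V1 gene of at least 5 TPM, had 146, 142 and 134 CPM under PBS and 161, 149 and 202 CPM under metformin. The groups did not overlap. Its log2 fold change of 0.28 (SE of 0.13 and an adjusted p of 0.487 in edgeR) was 0.13 without metformin replicate 3. Atp6v1g2, a G subunit isoform best known from neurons, gave only 39 to 97 reads per library. It had 1.66, 1.97 and 1.29 CPM under PBS and 4.25, 2.63 and 3.16 CPM under metformin, with no overlap, and a log2 fold change of 1.03 (SE 0.34, 95% interval 0.25 to 1.81, with an adjusted p of 0.401 in edgeR). It did not reach unadjusted p under 0.05 without metformin replicate 1 (log2 fold change 0.81) or without PBS replicate 3 (0.88). Its share of G subunit TPM was 1.21% ± 0.317 under PBS and 2.06% ± 0.322 under metformin, beside 98.5% and 97.7% for Atp6v1g1. Atp6v1g2 lies on the strand opposite to Nfkbil1 and overlaps it, and no source used here gives the strand setting of the counting, so their reads cannot be told apart. Nfkbil1 had a mean of 11.3 CPM under PBS and 16.1 CPM under metformin, a log2 fold change of 0.50 (SE 0.18).

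The accessory proteins ATP6AP1 and ATP6AP2 assist assembly and trafficking of the pump. Atp6ap1 had 261, 275 and 269 CPM under PBS and 273, 271 and 278 CPM under metformin, and the groups overlapped. Its log2 fold change was 0.03 (SE 0.08, 95% interval -0.16 to 0.22, with an adjusted p of 0.914 in edgeR), an interval that holds 0. On deposited TPM it was lower in every metformin library, at 204, 208 and 186 TPM against 212, 211 and 227 TPM. The log2 difference was -0.12, against a median of -0.08 for all genes tested, so its sign depends on the unit. Atp6ap2 had 78.3, 80.1 and 74.0 CPM under PBS and 78.3, 77.5 and 88.1 CPM under metformin, overlapping groups with a log2 fold change of 0.07 (SE 0.10) that was -0.02 on TPM.

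Of the 5 Ragulator genes, 0 passed adjustment in edgeR and 4 lay above 0. At unadjusted p under 0.05, 2 of the 5 were higher, beside 5.29% of all genes. With the length trend removed 1 of the 5 was higher at that limit, beside 4.71% of all genes. The Ragulator median log2 fold change was 0.26, 0.13 without metformin replicate 3 and 0.08 with the length trend removed. For all genes tested the median was 0.0053. Lamtor4 encodes the Ragulator subunit that pairs with Lamtor5 and lies at 138253744 to 138257660 on the plus strand of chromosome 5 (ENSMUSG00000050552.9). It had 28.4, 26.1 and 27.9 CPM under PBS and 39.1, 34.7 and 48.8 CPM under metformin. Every metformin library was above every PBS library, also on TPM (60.8 to 65.1 against 75.1 to 94.6 TPM). The means were 27.4 ± 1.22 and 40.9 ± 7.20 CPM (SD, n = 3), a log2 fold change of 0.57 (SE 0.14, 95% interval 0.24 to 0.90, with an adjusted p of 0.299 in edgeR). DESeq2 gave 0.57 (SE 0.17) with an adjusted p of 0.0382. Across all 18 alternatives the value ran from 0.30 to 0.68.

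Lamtor2, which pairs with Lamtor3 in the complex, lies at 88457126 to 88460381 on chromosome 3 and had 61.3, 57.2 and 59.9 CPM under PBS and 77.9, 68.8 and 91.7 CPM under metformin. The groups did not overlap. Its log2 fold change was 0.42 (SE 0.12, 95% interval 0.14 to 0.70, with an adjusted p of 0.349 in edgeR), which was 0.30 without metformin replicate 3. Lamtor1, the lipid-anchored subunit that wraps around the others, had 57.2, 58.0 and 61.9 CPM under PBS and 67.4, 62.1 and 82.7 CPM under metformin. These groups also did not overlap, by 61.9 against 62.1 CPM. Without metformin replicate 3 the log2 fold change of Lamtor1 was 0.13, and over all libraries it had a log2 fold change of 0.26 (SE of 0.12 and an adjusted p of 0.507 in edgeR). Lamtor5 and Lamtor3 had log2 fold changes of 0.16 (SE 0.13) and -0.04 (SE 0.11), so the 5 estimates did not share a sign. Lamtor3 had 49.8, 47.0 and 45.3 CPM under PBS and 41.4, 45 and 51.5 CPM under metformin, which overlap.

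The Rag GTPases gave 0 of 4 genes at unadjusted p under 0.05, with a median log2 fold change of 0.11 that was 0.0027 without metformin replicate 3 and 0.22 without metformin replicate 1. RagA was the main form of its pair, with Rraga at 82.2% ± 1.75 (SD, n = 3) of the summed TPM under PBS and 83.1% ± 4.16 under metformin. Rraga had 37.1, 44.8 and 40.0 CPM under PBS and 40.7, 42.0 and 51.4 CPM under metformin, overlapping groups with a log2 fold change of 0.14 (95% interval -0.16 to 0.44) that was 0.02 without metformin replicate 3 and 0.07 without PBS replicate 1. Rragb had 8.14, 7.84 and 8.24 CPM under PBS and 6.30, 7.30 and 12 CPM under metformin. Its 3 PBS libraries lay between the metformin libraries, and its log2 fold change of 0.08 (95% interval -0.54 to 0.69) was -0.25 without metformin replicate 3. RagC made up 99.8% of its pair under PBS. Rragc had 135, 128 and 135 CPM under PBS and 132, 132 and 129 CPM under metformin, a log2 fold change of -0.02 (95% interval -0.21 to 0.18). Rragd had few reads, 8 to 33 per library (0.328 to 1.38 CPM), and a log2 fold change of 0.42 with an interval of -0.94 to 1.79.

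**Figure D2:**
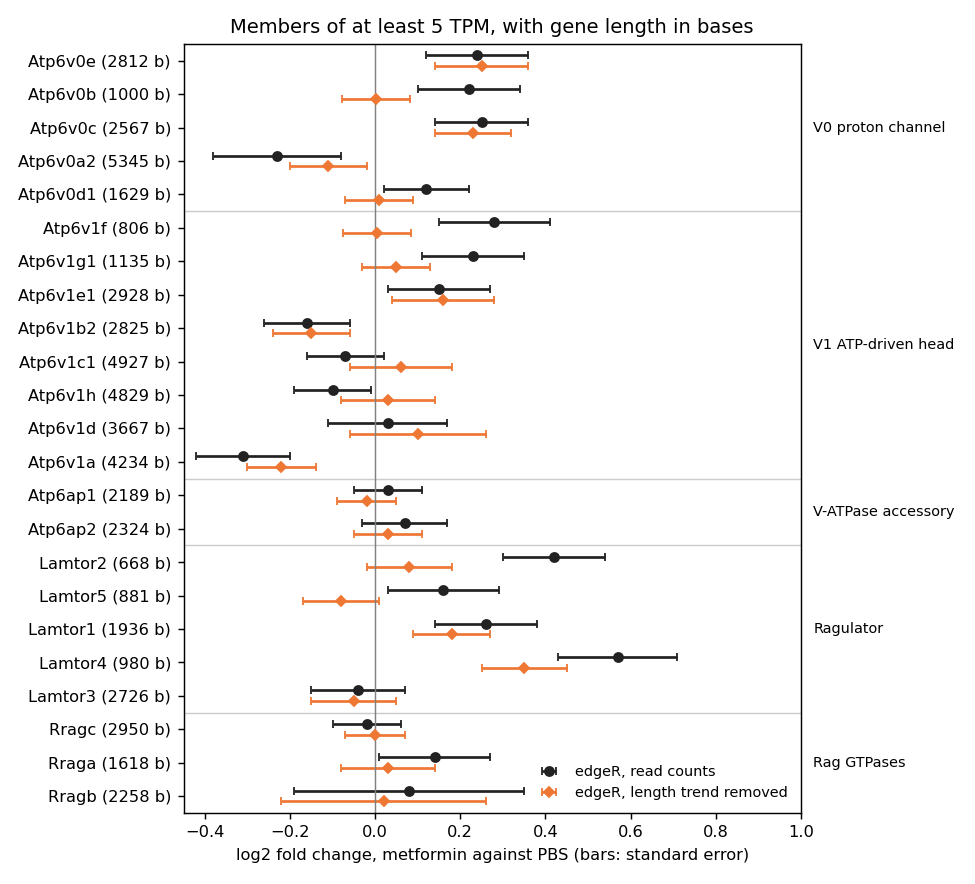
Log2 fold change of metformin against PBS for the 23 members of at least 5 TPM, from read counts (circles) and with the gene-length trend removed (diamonds), bars being the standard error of each. Lamtor4 is highest at 0.57 and 0.35, Lamtor2 moves from 0.42 to 0.08, and Atp6v1a is lowest at -0.31 and -0.22.

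Fold change tracked gene length among the members. Across the 23 members of at least 5 TPM, Pearson's r between log2 fold change and log10 gene length was -0.78, a description across genes that share the same 6 libraries, and -0.72 without metformin replicate 3. The 6 members under 1200 bases (Atp6v0b, Atp6v1f, Atp6v1g1, Lamtor2, Lamtor5 and Lamtor4) were all above 0, from 0.16 to 0.57, with a median of 0.26. All 2155 genes tested of that length had a median of 0.31, so the short members' median did not exceed that of other short genes. Lamtor4 (0.57) and Lamtor2 (0.42) lay above it and the other short members below. The gene medians here take genes at any level, also under 5 TPM. The 4 members over 4000 bases (Atp6v0a2, Atp6v1c1, Atp6v1h and Atp6v1a) were all below 0, from -0.31 to -0.07, with a median of -0.16 against -0.12 for 4926 genes of that length. The 13 members between had a median of 0.08, with 10 above 0, against 0.02 for 8446 genes. These length limits were set after the values were seen and use the deposited gene length. The assigned transcript length under PBS averaged 5328 bases for Atp6v0a2. It was 2265 for Atp6v1c1, 2083 for Atp6v1h and 3575 for Atp6v1a, all under 4000 bases.

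The length pattern differed between libraries, within groups too. The short members' median deviation from their own means (log2 CPM) was -0.10, -0.12 and -0.20 in the PBS libraries and 0.10, -0.03 and 0.36 in the metformin libraries. The long members' deviation was 0.06, 0.14 and 0.08 under PBS and -0.09, -0.01 and -0.15 under metformin. Metformin replicate 3 had the largest deviation for the short members, and metformin replicate 2 lay nearest to 0 for both sets. In all genes tested, the correlation of a library's deviations with length was 0.00985, 0.315 and 0.359 under PBS and -0.225, 0.0598 and -0.358 under metformin.

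**Figure D3:**
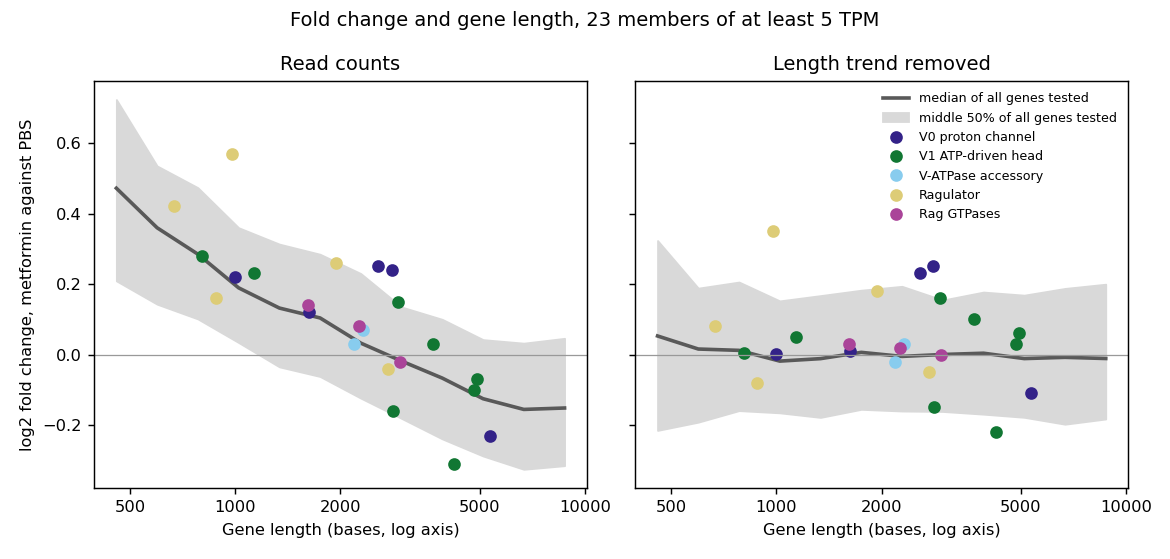
Log2 fold change against gene length (bases, log axis) for the 23 members of at least 5 TPM, coloured by role, over the median (line) and middle 50% (band) of all genes tested, from read counts on the left and with the length trend removed on the right. The members' r is -0.78 on the left and -0.21 on the right.

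A fit that takes each library's own length trend out as an offset was therefore set beside the first. Its unadjusted p was under 0.05 and higher for 3 members (Lamtor4, Atp6v0c and Atp6v1g2), against 4.71% of all genes, and lower for 1 (Atp6v1a), against 5.5%. Adjusted, edgeR called 0 of 29 members and 0.00644% of all genes. In this edgeR fit Lamtor4 had 0.35 (adjusted p = 0.308), Atp6v1g2 0.95 (adjusted p = 0.411), Atp6v0c 0.23 (adjusted p = 0.460) and Atp6v1a -0.22 (adjusted p = 0.414). With the replicate block added to this fit, Atp6v0c no longer reached unadjusted p under 0.05. Lamtor2, in contrast, had 0.08 (adjusted p = 0.80 in edgeR) and Atp6v1f 0.0040. Most of their difference on counts thus went with the trend that the offset takes out. The offset used the deposited gene length, which for some members exceeds the transcript length that the quantification assigned. Atp6v0c had 2567 bases against a mean of 1155 assigned under PBS, and Atp6v0e 2812 against 703. On TPM, which uses the assigned length, the log2 differences of Atp6v0c and Atp6v0e were 0.10 and 0.06. Those of Lamtor2 and Atp6v1f were 0.20 and 0.07, and the median of all genes tested was -0.08. Whether a length trend remains in the offset values of Atp6v0c and Atp6v0e was not tested. Of the short members, 5 of 6 stayed above 0, from -0.08 for Lamtor5 to 0.35 for Lamtor4, with a median of 0.03. Treatment and length trend moved together only in part: the correlation with length was 0.0598 in metformin replicate 2 and 0.00985 in PBS replicate 1. The offset also takes out any effect of metformin that follows length, and the parts cannot be told apart.

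**Figure D4:**
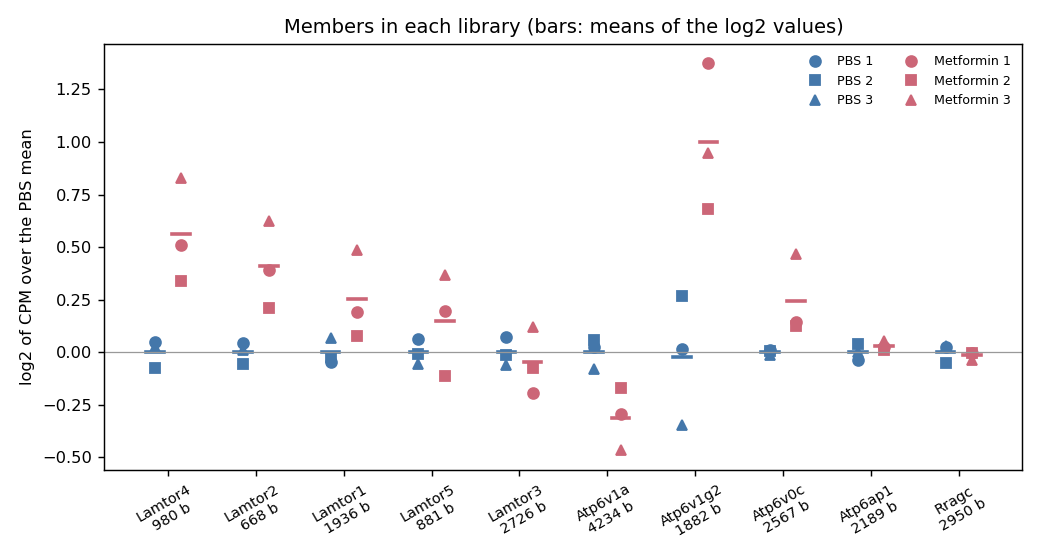
Log2 of CPM over the PBS mean in each library for selected members with their length in bases, 1 point per library, bars being the group means of the log2 values. Lamtor4 is above its PBS range in all 3 metformin libraries (34.7 to 48.8 against 26.1 to 28.4 CPM), and Atp6v1a is below it (69.6 to 85.4 against 90.9 to 100 CPM).

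Counted by overlap, 8 of 29 members had all metformin libraries above all PBS libraries in CPM (27.6%, against 9.49% of all genes) and 2 had them below (6.90%, against 9.63%). The 8 were Atp6v0e, Atp6v0c, Atp6v1f, Atp6v1g1, Atp6v1g2, Lamtor1, Lamtor2 and Lamtor4, of which 4 are under 1200 bases by deposited gene length. Atp6v0e, Atp6v0c and Lamtor1 are longer by that measure, but their assigned transcript lengths under PBS averaged 703, 1155 and 1095 bases. In deposited TPM the count turned: 3 members were above (Atp6v1g2, Lamtor2 and Lamtor4; 10.3%, against 4.82% of all genes) and 6 below (Atp6v1c1, Atp6v1h, Atp6v1a, Atp6ap1, Lamtor3 and Rragc; 20.7%, against 15.2%). The members' median log2 difference on TPM was -0.03, and that of all genes -0.08. Lamtor2, Lamtor4 and Atp6v1g2 were above and Atp6v1h and Atp6v1a below in both units.

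No gene of the surrounding pathway lists passed adjustment in edgeR. The counts below at unadjusted p under 0.05 stand beside 5.29% of all genes higher and 5.08% lower. Beside the name rule, Tcirg1 had 184 ± 12.7 CPM under PBS and 191 ± 11 CPM under metformin (SD, n = 3), a log2 fold change of 0.06 (SE 0.10) that was 0.01 without metformin replicate 3, and Rnasek, a further V0-associated subunit gene, had 71.1 ± 4.46 and 93.8 ± 11.5 CPM, a log2 fold change of 0.40 (adjusted p = 0.347 in edgeR) that became 0.12 with the length trend removed. Of 11 tested V-ATPase assembly factors and regulators, 0 were at unadjusted p under 0.05 in either direction. Of 20 tested Rag regulators, the GATOR, KICSTOR, FLCN, CASTOR and sestrin genes, 1 was higher (Kptn of KICSTOR, with means of 21.3 CPM under PBS and 26.8 CPM under metformin) and 2 were lower at unadjusted p under 0.05. Those were the GATOR2 gene Seh1l (means of 107 and 90.2 CPM) and the leucine sensor gene Sesn2 (34.1 and 25.8 CPM, log2 fold change -0.40). With the length trend removed, 0 Rag regulators were higher and 1, Sesn2, was lower at the same limit. BORC, which binds Ragulator and positions lysosomes, had 1 of 8 higher (Borcs8, 18.9 and 25.1 CPM, log2 fold change 0.41, and 0.16 with the length trend removed). None of the 9 mTORC1 and TSC genes was at unadjusted p under 0.05, with a median log2 fold change of -0.04.

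Of 13 tested genes of the lysosomal AMPK route, 0 were higher and 2 lower at unadjusted p under 0.05, with a median log2 fold change of -0.14. Prkab2, an AMPK beta subunit gene, had means of 13.6 and 8.49 CPM, a log2 fold change of -0.68 (SE of 0.23 and an adjusted p of 0.420 in edgeR), and Cab39, the MO25 partner of the kinase LKB1, had 371 and 302 CPM (log2 fold change -0.30, and -0.19 without metformin replicate 3). Psenen, which encodes PEN2, had 82.1, 76.4 and 81.3 CPM under PBS and 83.7, 86.4 and 115 CPM under metformin, a log2 fold change of 0.25 (SE 0.14) that was 0.08 without metformin replicate 3 and -0.06 with the length trend removed. Axin1, whose product docks LKB1 at the V-ATPase, had -0.16 (SE 0.21), and Prkaa1, an AMPK catalytic subunit gene, -0.14 (SE 0.13). Without metformin replicate 3 these were 0.06 for Axin1, a change of sign, and -0.03 for Prkaa1. Among 3 tested MiT/TFE factors, which switch on V-ATPase and lysosomal genes, 0 were at unadjusted p under 0.05, with Tfeb at -0.10 and Tfe3 at -0.18. Tfe3 had -0.05 without metformin replicate 3 and -0.04 with the length trend removed. Of 32 lysosomal hydrolase and membrane protein genes, 1 was higher (Sgsh, with means of 25.2 and 32.2 CPM) and 3 lower at unadjusted p under 0.05. The glycosidase genes Gaa (60.4 and 45.7 CPM) and Manba (72.5 and 54.5 CPM) were among the lower ones, and the list's median was -0.10.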

How the data were processed

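The authors deposited, in 1 table, estimated counts and TPM per gene with gene length and position, for 3 PBS and 3 metformin libraries. Per the submitters' processing notes DRAGEN was used, and GRCm39 and mm10 are named with no role; the version, strand setting and annotation are not given in the sources used here. Positions printed for genes are those of the deposited table: of 36 members only 2 stand at the same position in GENCODE M21 (GRCm38), so no GRCm38 position was mixed with them.

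Estimated counts deposited by the authors (11% to 12.6% of values per library not whole) were rounded and tested in edgeR 4.0.16 (quasi-likelihood, TMM scaling, filterByExpr, no covariate, R 4.3.3) over 15527 genes, with a Benjamini-Hochberg threshold of 0.05. CPM uses TMM-scaled library sizes. The length trend was a lowess (span 0.3) per library of log2 CPM deviation on log10 gene length, used as an offset. DESeq2 1.42.0 and limma 3.58.1 (limma-voom, and log2(TPM + 1)) were alternatives, so a TPM difference is on the log2(TPM + 1) scale. The code was tested on simulated data. Reads carried no stated molecular identifiers, and the common biological coefficient of variation was 27.3%.

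The members and lists were chosen with earlier results of these data known. Named were, per role group, members at unadjusted p under 0.05, the 2 with the smallest p, the highest by TPM and 8 genes fixed by role; per pathway list, up to 4 genes at unadjusted p under 0.05 and 6 fixed by role. Atp6v0a2, Atp6v1g1, Lamtor3 and Lamtor5 were added after their values were seen. Kics2 and Samtor were not matched, and 1 gene that the rule names is not reported here.

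Deviations of same-numbered PBS and metformin libraries had correlations of 0.170, 0.110 and 0.151, against -0.238 to 0.0723 for other pairs. Every same-numbered value thus lay above every value of the other pairs. A pairing is not stated in the labels and was not itself tested. Fits with the replicate number as a block are given below.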

Additional observations from a re-analysis of the deposited data

How the results depend on the processing

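Across 18 alternatives the member calls at adjusted p under 0.05 changed in DESeq2 alone, which called 1 member (Lamtor4, adjusted p = 0.0382), where edgeR called 0. Leaving out 1 library at a time gave 2 to 9 members higher at unadjusted p under 0.05 (9 without metformin replicate 2) and 0 to 2 lower (2 without metformin replicate 2, 0 without PBS replicate 1 or 2). Over all genes, these fits had from 1048 of 16165 (without PBS replicate 2) to 1893 of 16169 (without metformin replicate 2) in either direction. The members' median log2 fold change ran from 0.01 to 0.16 when 1 library was left out. It was -0.03 on TPM with either pseudocount, where all genes had -0.10 (pseudocount 0.1) and -0.08 (pseudocount 1). With the length trend removed and metformin replicate 3 left out, the members' median was -0.01. The cause was not tested.

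With the replicate block, edgeR called 0 members, with 3 higher and 1 lower at unadjusted p under 0.05, as without it. Added to the fit with the length trend removed, the block left 2 members higher (Atp6v1g2 and Lamtor4) in place of 3, without Atp6v0c, and 1 lower. Over all genes the block alone called 3, against 0. At unadjusted p under 0.05 in either direction it had 1536 of 15527 genes, and 1532 with the length trend also removed.

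Signs turned for 7 of the 14 members named by the rule. On TPM with a pseudocount of 0.1 or 1, Atp6ap1 had -0.12 and Atp6ap2 -0.02 in both, and Rragb -0.10 and -0.09. The median of all genes tested was -0.10 and -0.08 in these settings, against 0.0053 in the main fit. With the length trend removed Atp6ap1 had -0.02; with the replicate block added to that, Atp6ap1 had -0.02, Rragb -0.02 and Rragc 0.00042. With the trend removed and metformin replicate 3 left out, Atp6v1f had -0.04, Rraga -0.01, Rragb -0.25 and Rragc 0.01. With 1 library left out, Rragb ran from -0.25 (without metformin replicate 3) to 0.25 and Rragd from -0.05 (without metformin replicate 2) to 0.68. Atp6ap1 had -0.00077 without PBS replicate 1, and Rragc had 0.03 under upper quartile scaling. The cause was not tested. The precision is limited for Rragd, Atp6v1g2 and the other members under 5 TPM, whose median standard error was 0.59 on the log2 scale, against 0.12 for members of at least 5 TPM.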
